A study of Arabidopsis thaliana with 3 samples.

Results

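Expansins and xyloglucan endotransglucosylase/hydrolases (XTH proteins) are secreted proteins that remodel the plant cell wall. The genes were chosen by name. They were all nuclear protein-coding genes of the NCBI gene table with a symbol or synonym of EXPA (alpha-expansin), EXPB (beta-expansin) or XTH plus a number. This gave 62 of 27444 protein-coding genes, namely 23 EXPA, 6 EXPB and 33 XTH genes. The data were 1 list of peak summits, the single positions with the most signal in each peak, from chromatin immunoprecipitation and sequencing (ChIP-seq) of JMJ28, a JmjC-domain protein of a histone demethylase family. All 3 libraries, 2 ChIP libraries and 1 input library, came from whole Arabidopsis thaliana Col-0 seedlings with the genotype JMJ28pro::JMJ28:3xFLAG. In this line JMJ28 carries a 3xFLAG epitope tag and is driven by the JMJ28 promoter. The plants were 14 days old and had grown in long days at 22 °C. No library from plants without the tag was analysed here, and whether the line also had untagged JMJ28 is not given in the sources used here.

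Plant cells grow when their wall yields to turgor. Expansins loosen the wall without cutting its polymers and work best in acid, which plasma membrane proton pumps supply. XTH enzymes act on xyloglucan, the chain-like polymer that coats cellulose. They cut a xyloglucan chain and either join it to another chain or, in a few members, hydrolyse it. Both families are large in Arabidopsis, and many of their genes are used in 1 organ or cell type, such as root hairs, guard cells or xylem.

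Fewer expansin and XTH genes had a JMJ28 summit than other genes. A gene was counted when a summit lay inside it or within 1000 bp of either end. By this count 25 of the 62 members (40.3%, exact 95% interval 28.1 to 53.6) had a summit, against 65.4% of all nuclear protein-coding genes. Longer genes hold summits more often, and the members were rather short, with a median length of 1667 bp against 2078 bp. Other protein-coding genes within 10% of each member's length had a summit in 63.9% of cases, averaged over the members, so length left a gap of 23.6 percentage points. By class of gene, nearly all of this difference was in genes with a summit inside. A summit lay inside 14 members (22.6%), against 47.7% of all genes and 45.2% of like-length genes. Another 11 members (17.7%) had a summit in the flank only, the same share as all genes (17.7%) and close to that of like-length genes (18.7%). This class leaves out genes that also have a summit inside, so equal shares do not mean that the flanks were alike. Counting every flank summit, member flanks held 0.113 summits per kb, against 0.211 for all genes. Inside the gene the values were 0.149 and 0.253. With flanks of 500 bp 20 members had a summit (59.2% of all genes), and 18 did when a summit was given to the nearest gene alone (51.3% of all genes). The values come from 1 list without replicates, so the spread between plants is unknown, the interval covers counting error only, and no test was made. All intervals given here treat genes as independent, although some members share a summit, so a share inside or outside an interval is not a test result. In whole seedlings a site used in few cells and a weak site in many cells cannot be told apart.

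**Figure D1:**
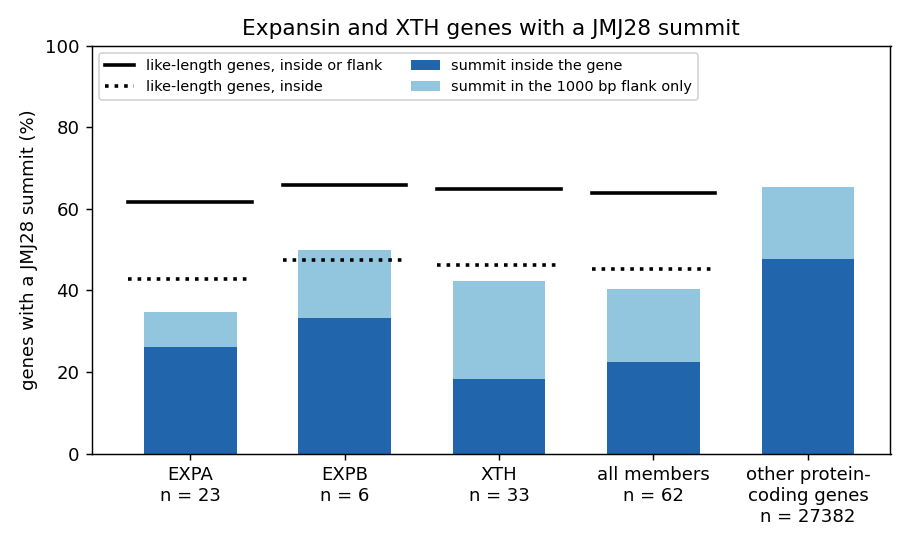
Share of genes with a JMJ28 summit (%), by family, for all 62 members and for the 27382 other protein-coding genes. Dark bars are genes with a summit inside, light bars genes with a summit in the 1000 bp flank only, and black lines mark genes of like length (solid, inside or flank; dotted, inside). In all 3 families the dark bar ends below the dotted line and the whole bar below the solid line.

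The members also stood in more open surroundings than most genes. Other protein-coding genes covered on average 24.5% of their flanks of 1000 bp, against 41.1% for all genes, and the median gap to the neighbouring genes was 1660 bp against 928 bp. Compared with genes of like length whose flanks were also covered to within 10 percentage points, the gap narrowed: 53.8% of those genes had a summit, and 38.9% had one inside. Both values remained above the 40.3% and 22.6% of the members, but the first lay only just beyond the upper end of the members' interval (53.6%). The difference was not tested. Flank ground outside other genes held 0.0854 summits per kb around members and 0.0883 around all genes. Flank ground inside other genes held 0.198 summits per kb around members and 0.386 around all genes.

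Each family had a lower share of genes with a summit than its like-length genes. Of the EXPA genes, 8 of 23 (34.8%, interval 16.4 to 57.3) had a summit, 6 of them inside the gene, against 61.7% and 42.9% of like-length genes. Of the EXPB genes, 3 of 6 (exact interval 11.8 to 88.2%) had one and 2 had it inside, against 66.0% and 47.6%. Of the XTH genes, 14 of 33 (42.4%, interval 25.5 to 60.8) had one, but only 6 (18.2%) had it inside, against 65.0% and 46.3%. When flank cover was matched as well as length, the shares to compare were 54.2% for EXPA, 54.3% for EXPB and 53.3% for XTH. Each of these lay above the family's share but inside its interval. The intervals of the families overlap widely, and the order of EXPA and XTH turned with the count: EXPA was lower with flanks of 1000 bp, and XTH was lower inside the gene and with flanks of 2000 bp (51.5% against 56.5%, and 73.3% of all genes).

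In both large families most of the genes with a summit inside were at or above the family's median length. Among EXPA genes 5 of the 12 at or above the median and 1 of the 11 below it had one. Among XTH genes these were 5 of 17 and 1 of 16, and XTH25, the gene at the median, is 1 of the 5. Of all genes 47.7% had a summit inside, and longer genes had one more often in general. Like-length genes of XTH12 to XTH26 (median 1513 bp) gave 41.3% inside, and those of XTH27 to XTH33 (median 2222 bp) 55.5%. Like-length shares inside were not computed for the longer and shorter genes of a family. Counting flanks, the longer genes fell short of their like-length genes, with 6 of 12 against a share of 69.1% for EXPA and 8 of 17 against 70.0% for XTH. The shorter genes did so as well, with 2 of 11 against 53.7% for EXPA and 6 of 16 against 59.7% for XTH.

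Each summit has a score in the authors' list. It follows the layout of a summit list of the peak caller MACS2, which gives a q-value or p-value there as its −log10. It is a strength of evidence and not an amount of JMJ28, and the median over 18368 nuclear summits was 9.07. The summits near members numbered 28, of which 16 lay inside a member and 12 in flanks only. The gene table gives no strand, so starts and ends of transcription were not distinguished.

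Of the 6 summits inside alpha-expansin genes, 4 scored below the nuclear median. EXPA20 had the strongest one inside an EXPA gene, which scored 30.5 (chromosome 4, position 17923861). This position, 112 bp from an end of EXPA20, is also inside the long noncoding RNA gene AT4G38215, so it cannot be assigned to either. EXPA6 followed with a score of 12.6 (chromosome 2, position 12432071), 733 bp inside the gene. The remaining 4 were those below the median. EXPA1, which acts in guard cell walls, had a summit of 6.07 at position 26142074 of chromosome 1. EXPA13 had one of 5.10 at position 743835 of chromosome 3, and EXPA15 one of 4.87 at position 918300 of chromosome 2. EXPA10, known for its part in leaf growth, had the weakest, 3.58 at position 9260582 of chromosome 1, and only 12.5% of nuclear summits scored as low or lower. The median of the 6 was 5.59, against 9.07 for summits inside all genes.

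The other EXPA genes with a summit had it in a flank. At EXPA11 it scored 32.4 and lay 792 bp outside (chromosome 1, position 7000631), nearer to the next gene, EMB2719, at 456 bp. The summit at EXPA8 was weak (3.19) and lay inside its neighbour AT2G40600. No summit was found at the other 15 EXPA genes. Among them were EXPA7 and EXPA18, which serve root hair growth, EXPA2, known from seed germination, and EXPA17, known from lateral roots. EXPA4, EXPA5, EXPA9, EXPA12, EXPA14, EXPA16 and EXPA21 to EXPA25 complete the group.

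The beta-expansins, relatives of the grass pollen allergens, held the strongest summit inside any member. EXPB3 had 1 summit near each end. The stronger, 63.3 at position 14001936 of chromosome 4, lay 188 bp from the upper end and matched or exceeded 96.0% of nuclear summits. The weaker, 9.67 at position 13999671, lay 46 bp from the lower end. EXPB1 had a summit of 8.77 inside (chromosome 2, position 8941118) and one of 9.07 in its flank, at position 8943329 inside the neighbour AT2G20760. At EXPB5 the summit (7.11, chromosome 3, position 22393635) lay 927 bp outside, nearer to AT3G60580. EXPB2, EXPB4 and EXPB6 had none.

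**Figure D2:**
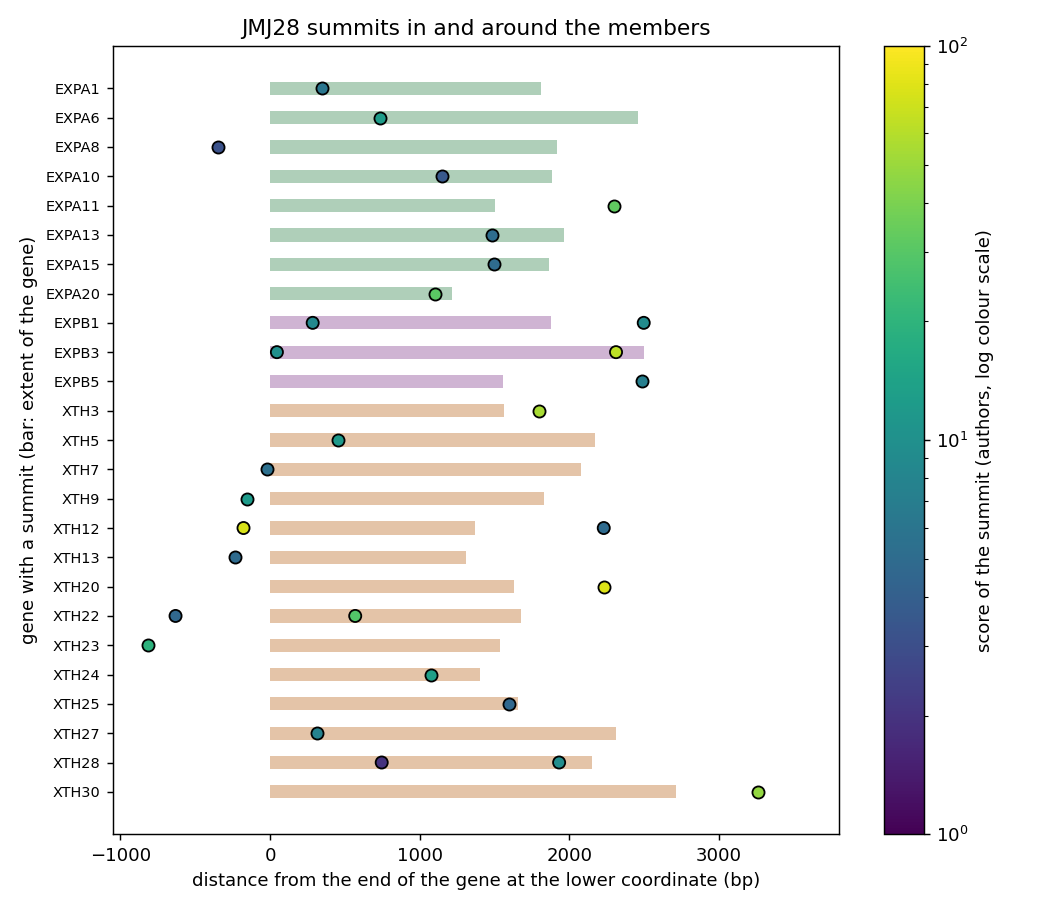
The 25 members with a summit, drawn to scale. Bars show each gene from its end at the lower coordinate (0 bp), and points are summits coloured by the authors' score on a log colour scale. The high scores of XTH3, XTH12, XTH20 and XTH30 all lie outside the bars, while that of EXPB3 lies inside.

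Among XTH genes, TCH4 stood first for summits inside the gene. TCH4 is XTH22, the touch-induced member of the family. Its summit scored 28.7 and lay 569 bp inside (chromosome 5, position 23307575). XTH24, also known as MERI5, had a summit of 13.2 at position 14820267 of chromosome 4, and XTH5 one of 11.9 at position 4475377 of chromosome 5. XTH28, which acts in stamen filaments, held a pair of summits on chromosome 1, one of 9.37 at position 5068456 and a very weak one of 1.96 at position 5067271. XTH27, listed as EXGT-A3 and known from developing xylem, had one of 7.64 at position 385485 of chromosome 2. XTH25 had one of 4.64, 65 bp from an end (chromosome 5, position 23306375). The median of these 7 summits was 9.37, close to the 9.07 of summits inside all genes.

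The strongest summits near XTH genes lay outside them. At XTH20 the score was 79.0. At XTH3 it was 54.3 (chromosome 3, position 9128646), inside the neighbour AT3G25060. At XTH23 it was 19.2 (chromosome 4, position 13127577), inside AT4G25800. A summit of 47.5 lay 550 bp from XTH30 (chromosome 1, position 11578580), inside the noncoding RNA gene AT1G32172.

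Some XTH flank summits had no other protein-coding gene as near. XTH12 had one of 75.2 at position 23300144 of chromosome 5, 177 bp outside, and the next protein-coding gene was 2271 bp from it. XTH9, which acts in stem and xylem growth, had one of 12.2 at position 1415465 of chromosome 4, 152 bp outside. XTH7 had one of 5.34 at position 17775347 of chromosome 4, only 23 bp outside. The remaining flank summits of the family scored 4.87 and 4.64. The first lies between XTH12 and XTH13, 1 bp from the gene AT5G57535, and the second, in the flank of TCH4, is the summit inside XTH25.

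Of the 14 pairs of a member and a flank summit, 6 (42.9%) had the summit inside another protein-coding gene, against 75.3% of the 11565 such pairs of all genes. The 14 pairs hold 13 distinct summits. Other genes also covered less of the members' flanks (24.5% against 41.1%), and these shares were not adjusted for that. Scores of the 9 distinct summits in the flanks of XTH genes ranged from 4.64 to 79.0 with a median of 19.2, and inside XTH genes from 1.96 to 28.7. Over pairs of a gene and a summit, the median scores were 10.6 for the 14 flank pairs and 9.07 for the 16 inside pairs of members, and 9.97 and 9.07 for those of all genes. The member scores overlap over most of their range, and no test was made.

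**Figure D3:**
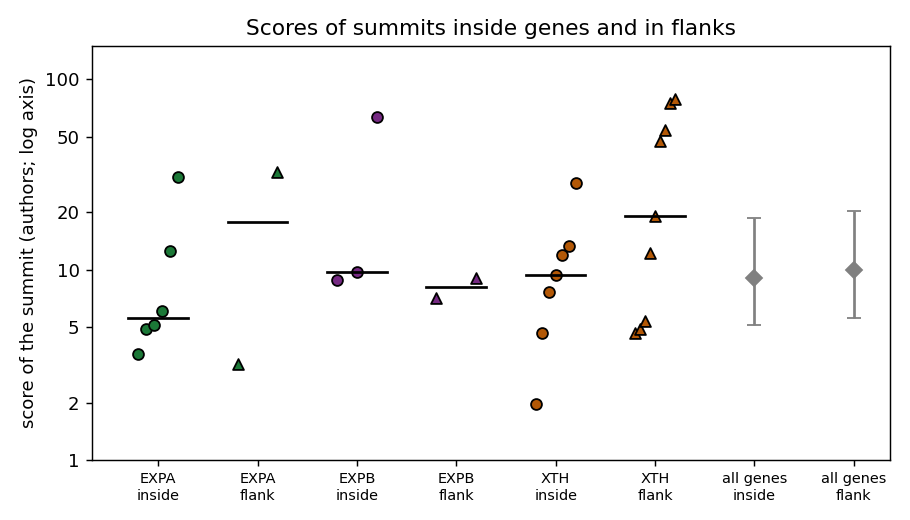
Scores of the member summits inside genes (circles) and in flanks (triangles) by family, on a log axis, with black lines at the medians. Grey diamonds are medians over all pairs of a protein-coding gene and a summit, with bars from the lower to the upper quartile. The widest range is that of XTH flanks, from 4.64 to 79.0.

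The XTH family is usually divided by sequence into groups that follow its numbering. Of XTH1 to XTH11, 4 of 11 had a summit (36.4%) and 1, XTH5, had it inside. Of XTH12 to XTH26, 7 of 15 had one (46.7%) and 3 had it inside. Of XTH27 to XTH33, 3 of 7 had one (42.9%) and 2 had it inside. The like-length shares were 66.0%, 60.6% and 72.8%, so each group lay below its own value. These shares were not matched for flank cover. Other genes covered 25.6%, 27.7% and 4.9% of the flanks of these groups, against 41.1% for all genes. The groups are small, and the exact intervals (10.9 to 69.2%, 21.3 to 73.4% and 9.9 to 81.6%) each include the group's like-length share. Those without a summit were XTH1, XTH2, XTH4, XTH6, XTH8, XTH10, XTH11, XTH14 to XTH19, XTH21, XTH26, XTH29 and XTH31 to XTH33. They include XTH14 and XTH26 of root hairs and XTH31 and XTH32, for which hydrolase activity is known or proposed.

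Genes that sit in tandem differed from one array to the next. The 5 genes EXPA21, EXPA22, EXPA23, EXPA25 and EXPA24 lie within 14.4 kb of chromosome 5 and had no summit. Their nearest summits were 2361 to 15508 bp away. The 4 genes XTH12, XTH13, XTH25 and TCH4 lie within 8.36 kb of the same chromosome, and all 4 had one, with 3 summits in the span. EXPB2 with EXPB6 and XTH1 with XTH2 had none. XTH23 had one and its neighbour XTH14 none, and of XTH24, XTH18 and XTH19 only XTH24 had one. In total, 6 of 18 members in such arrays (33.3%) and 19 of 44 elsewhere (43.2%) had a summit, against 65.4% of all genes. Like-length genes of the 44 gave 66.2%, above the 63.9% for all 62 members. No like-length share was computed for the 18 alone, so the 33.3% and 43.2% are not adjusted for length. Members of an array resemble each other in sequence, and the part of reads that cannot be placed uniquely was not tested.

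By shares of genes with a summit, the genes next to the members did not share the low value. The parts of other genes that lay in member flanks did hold fewer summits, 0.198 per kb against 0.386 around all genes. Among the 5 protein-coding genes on either side of each member, leaving out other members, 336 of 502 (66.9%) had a summit and 244 (48.6%) had one inside. Their like-length genes gave 65.6% and 47.6%. The immediate neighbours stood at 62.7% and 46.1%, and over the ranks 1 to 5 the share with a summit inside ran from 37.3% to 54.0%. Of the 299 genes around members without a summit 65.6% had one, and of the 126 around members with one inside 69.0%. Only XTH4 lay in a window of 500 kb poor in genes.

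**Figure D4:**
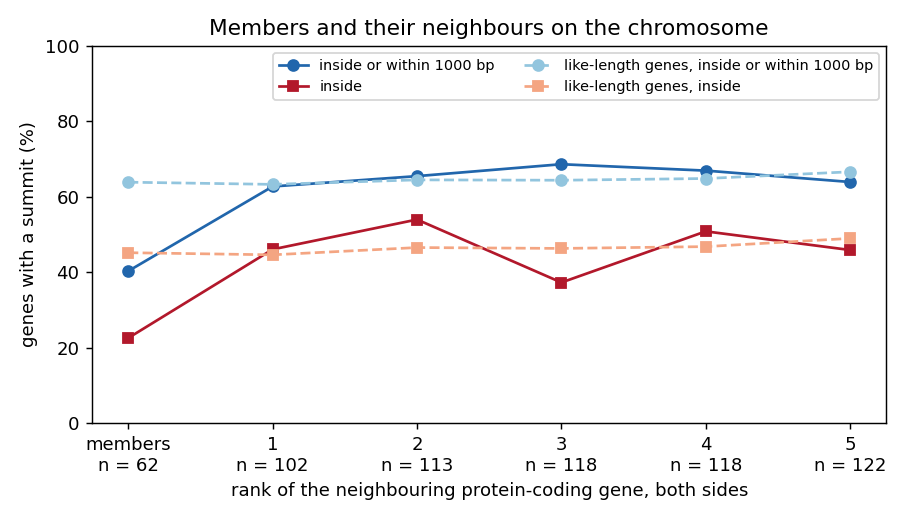
Share of genes with a summit (%) for the members and for the protein-coding genes next to them, by rank from 1 (adjacent) to 5, both sides together. Solid lines are the observed shares and dashed lines like-length genes. Members stand at 40.3% and 22.6%, and their adjacent genes at 62.7% and 46.1%.

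For many members without a summit the nearest one was a few kilobases away. Over the 37 such members the distance from the gene had a median of 3508 bp, against 3890 bp for all 9491 genes without a summit. It was within 2000 bp for 9 of them and over 5000 bp for 9. The largest distances were at XTH4 (93166 bp), in the gene-poor window, and XTH10 (26382 bp). Near the limit of 1000 bp, EXPB5 (927 bp) and XTH23 (817 bp) fell just inside, and EXPA12 (1142 bp) and EXPB4 (1252 bp) just outside. The median distance from a summit inside a member to the closer gene end was 338 bp, against 296 bp for summits inside all genes.

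**Figure D5:**
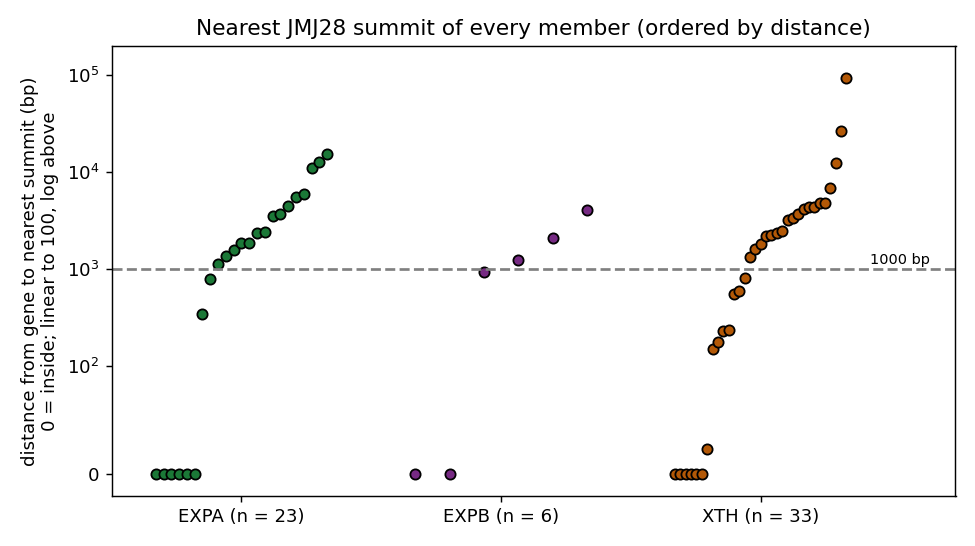
Distance (bp) from each of the 62 members to its nearest summit, ordered within each family, with 0 for a summit inside; the axis is linear to 100 bp and logarithmic above. The dashed line is the limit of 1000 bp. XTH4, at 93166 bp, is the highest point.

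On each of the 5 chromosomes the members had a lower share than all genes of that chromosome. Chromosome 3 was lowest, with 3 of 9 members (33.3%) against 67.0% of its genes. Chromosome 2 was highest, with 5 of 11 (45.5%) against 59.1%.

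Lists of other genes that build or adjust the wall had shares both above and below those of their like-length genes. All 15 GAUT genes, for galacturonosyltransferases of pectin synthesis, had one (like-length share 76.9%), led by GAUT3 (105), GAUT9 (101) and GAUT13 (80.4). All 4 genes for the wall receptor kinases FER, THE1, HERK1 and HERK2 had one inside (like-length 63.2%), with scores of 7.36 to 18.8. Of 13 xyloglucan synthesis genes, whose product is the XTH substrate, 10 had a summit (76.9%, like-length 74.6%), led by CSLC5 (59.6) and CSLC6 (27.3). Of 13 cellulose synthesis genes 10 had one (76.9%, like-length 82.9%), led by CESA3 (98.2), KOR1 (64.1) and CESA5 (49.8). Genes named PME plus a number, for pectin methylesterases, had one in 11 of 15 cases (73.3%, like-length 73.0%), and PME31 scored highest (83.1). The name PME1 is shared by 2 of them, and AT4G12390, which has a summit, is known as a gene for an inhibitor of the enzyme. Proton pump genes had one in 8 of 11 cases (72.7%, like-length 81.7%), led by AHA7 (42.1), AHA1 (40.5) and AHA2 (31.5). The expansin-like genes EXLA and EXLB had one in 3 of 6 cases, all inside (against like-length shares of 57.1% with flanks and 38.0% inside), with scores of 2.81 to 6.32. These lists were not tested against the expansin and XTH genes. Scores in this paragraph are the highest inside a gene or within 1000 bp of it. Those of GAUT3, GAUT9, CSLC5, CSLC6, CESA3, KOR1 and AHA7 belong to summits in flanks. So do those of HERK2 and EXLA1, which fall within the ranges given.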

How the data were processed

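The study's single file is a list of 18410 summits of 1 bp each. The score per summit is the authors' deposited value. Per the submitters' processing notes, Bowtie2 and MACS2 were used with the TAIR10 build. The sources used here name no versions, threshold, pooling of libraries, use of the input or depth. Genes came from the NCBI table of TAIR10.1, whose extents were used for assignment only. Printed positions are the authors' (TAIR10, counted from 1). Coordinates were checked by shifting the summits: on 5 of 5 chromosomes the unshifted list had the most summits no more than 300 bp from gene ends (at least 52.7%, against at most 30.1% after shifts of 1000 to 5000 bp).

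Only the 18368 nuclear summits were used; 42 others were left out. Like-length shares are averages over members of the share among other genes within 10% of the member's length. Intervals are exact binomial (Clopper-Pearson, 95%). No test was run, because the list has no replicate values. The members, lists and groups were chosen with earlier results of these data known. Tandem groups allow at most 1 other gene between members. Every member is named, with values for all summits inside members and the 10 highest in flanks, and up to 3 genes of each other list. The assignment was tested on simulated data. Scripts ran in Python 3.11.15 with pandas 2.3.3, numpy 2.4.6, matplotlib 3.10.9 and SciPy 1.17.1. Other flanks, score limits, nearest-gene assignment, name rules and length rules were tried. Exons, strand and sequences were not analysed here. The place of 1 flank summit is not reported here.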

Additional observations from a re-analysis of the deposited data

How the results depend on the processing

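With other flanks, score limits, nearest-gene assignment and the wider name rule, the share with a summit stayed below that of all genes and of like-length genes, for all members and for each family. Leaving out tandem arrays, length deciles and the 25% length rule were run for all members only. With summits inside the gene only, 14 members and 6 XTH genes were counted. With a flank of 2000 bp, 34 members (54.8% against 73.3% of all genes) and 13 EXPA genes (56.5%) were counted. With the upper 50% of scores there were 15 members and 3 EXPA genes (24.2% of members against 43.8% of all genes), and with the upper 25% of scores 9 members, 2 EXPA, 1 EXPB and 6 XTH genes (14.5% against 25.4%). Giving every summit to the nearest gene alone left 18 members (29.0% against 51.3%), and a flank of 500 bp gave 20 (32.3% against 59.2%). Of the pairs of a member and a summit, 53.3% had the summit inside the member (58.9% of the pairs of all genes). This share of pairs was 72.7% with flanks of 500 bp (71.1%) and 35.6% with flanks of 2000 bp (44.7%). Members thus passed from below to above all genes at 500 bp. Without members in tandem arrays, an alternative chosen after seeing the data, 19 of 44 had a summit (43.2%, like-length 66.2%). Matching flank cover as well as length, also chosen after seeing the data, lowered the like-length share from 63.9% to 53.8%. No paired analysis was possible because the result comes from 1 list with no value per library. Leaving out a library was not possible for the same reason.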

Other observations

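A few expansin genes did not meet the naming rule and stayed out of the counts. EXP3, which the gene table also lists as ATEXPA3, had a pair of summits inside the gene, at positions 15788428 and 15789209 of chromosome 2, with scores of 14.6 and 3.78. With EXP3 added, 9 EXPA genes (37.5%) and 26 of all members (41.3%) had a summit. EXP26, which lies in the array of EXPA21 to EXPA25, had no summit within 1000 bp, and the nearest was 5987 bp away. EXPA19 is listed as a transcribed pseudogene, and its nearest summit was 4859 bp away.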
